A study of Mus musculus with 8 samples.

Results

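The core proteins of the spliceosomal small nuclear ribonucleoproteins (snRNPs) were followed here in mature mouse eggs that lacked Esrp1 and in wild-type eggs. The members were the protein-coding genes whose GENCODE M21 symbol named a core snRNP protein: an Snrp, Snrnp, Sf3a, Sf3b, numbered Prpf, U2af or Lsm1 to Lsm8 gene. They numbered 51 of the 24860 genes listed in every library. The rule uses names and no measured value, and it was set with earlier results of these data known. Mature eggs, stopped at the second meiotic metaphase (MII oocytes), came from 6-week-old females (postnatal day 42) of strain C57BL/6. The first group was homozygous for the Esrp1 knockout allele (Esrp1-KO, Esrp1-/-), and the second was wild type (WT). No further allele or treatment is named for either group. Where Esrp1 was deleted, and whether in the whole animal or by a Cre driver, the labels leave unstated. Each group had 4 libraries, called biological replicates by the submitters, and each library came from a tube of 15 oocytes. The labels do not say whether each tube came from a separate animal, and the p-values below cover tube-to-tube spread only.

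Introns are removed by a pair of transesterification steps that need small nuclear RNAs, each packed with proteins into an snRNP. U1 finds the 5' splice site, U2 with the SF3a and SF3b complexes finds the branch point, and a tri-snRNP of U4, U6 and U5 brings in the RNAs that form the catalytic centre. A ring of Sm proteins sits on U1, U2, U4 and U5, and a ring of Lsm proteins sits on U6. The mature egg does not transcribe its genome to any large extent, so its RNA is mostly a store laid down during growth. ESRP1, the deleted protein, is a regulator of alternative splicing in epithelial cells and no part of the core machinery.

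Values are FPKM (fragments scaled by exon length and library total) as deposited. Fold changes are log2 differences of FPKM + 1, Esrp1-KO minus WT, with the standard error (SE) and limma's p-value adjusted over all genes tested by Benjamini-Hochberg. A gene was called higher or lower at an adjusted p below 0.05. Read totals, worked out from the steps in the values, lay between 24910433 and 32337967 in Esrp1-KO and between 25018182 and 28932109 in WT. Esrp1 itself had 3.62, 3.43, 2.31 and 3.83 FPKM in Esrp1-KO and 17.1, 17.2, 19.5 and 16.2 FPKM in WT (log2 fold change -2.12, SE 0.15, limma adjusted p = 1.3e-05). All 12 oocyte markers stood at 19.4 FPKM or more in every library. Of 11 listed markers of cumulus and granulosa cells, 10 stayed below 1 FPKM in all 8 libraries. The exception was Cyp19a1, and the list summed to 1.85 to 3.11 FPKM in Esrp1-KO and 5.71 to 7.35 FPKM in WT. Leukocyte markers (7) summed to 1.94 to 11.2 FPKM in Esrp1-KO and 1.201 to 2.16 FPKM in WT, with Lyz2 at 5.44 and Cd68 at 3.498 FPKM in Esrp1-KO replicate 3. Of these, H2-Aa had groups apart, at 1.30 to 2.07 FPKM in Esrp1-KO and 0.661 to 0.959 FPKM in WT. The groups of every other leukocyte marker overlapped. Erythroid markers (4) reached 0.134 FPKM in sum in Esrp1-KO and 0.449 in WT. Early-embryo markers (11) summed to 1.29 to 1.97 FPKM in Esrp1-KO and 0.818 to 2.77 FPKM in WT. WT replicate 1 had the most genes above 0 (20047). The part of these markers in the results below was not tested. Calls of members, and of other genes named below, that end without these 2 libraries (Esrp1-KO replicate 3 and WT replicate 1) are named. Some calls of further spliceosome genes, given only as counts, also ended and are not named.

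Most core snRNP protein genes did not pass the test between Esrp1-KO and WT eggs, and no snRNP class had more than 2 of its genes called. Of the 51 members, 39 (76.5%) had a mean of at least 1 FPKM and were tested, against 40.8% of the 16968 protein-coding genes listed. Among the 39, 8 were called (20.5%), against 36.9% of the 8021 genes tested. Snrnp70, Prpf39 and Lsm4 were higher in Esrp1-KO (7.69% of tested members, 13.9% of all genes). Sf3b4, Lsm6, Sf3b3, Snrpn and Prpf3 were lower (12.8% of tested members, 23.1% of all genes). With this filter the members' share called lay below the share over all genes in both directions. With no filter on level it lay above, at 15.7% of 51 members and 12.2% of 24860 genes. Neither difference was given a test. Without WT replicate 4 the lower members numbered 3, with Prpf3 and Sf3b4 no longer called. The split over all genes was 1111 higher to 1850 lower as deposited, 1430 to 1554 with median-ratio scaling and 1482 to 1546 with quantile normalization.

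Changes of the members were also small in size. The median log2 fold change was 0.03 over the 39 members and -0.06 over all genes tested, with 20 members positive and 19 negative. The median absolute log2 fold change was 0.19 for members and 0.37 for all genes. A single member, Sf3b4, had an absolute log2 fold change of 1 or more, against 11.3% of all genes. On a scale with less weight on the added constant, Lsm4 passed this size too, at 1.10 with a pseudocount of 0.1 (18.5% of all genes) and 1.18 with voom on recovered reads (19.7%). Without Esrp1-KO replicate 2 or WT replicate 3, Sf3b4 stood at -0.95 and -0.97 and no member reached it. The groups did not overlap for 8 members (20.5%), against 36.8% of all genes tested: those called except Sf3b4, and Snrnp48. For 15 of the 31 members not called, the 95% confidence interval lay within 1.5-fold of FPKM + 1 in either direction. For 16 it reached further. Among all genes not called, 45.4% had an interval within this limit. In FPKM itself the bounds of low genes lie further out. The widest bounds on the log2 scale were -0.9997 for Snrpb2 and 1.45 for Lsm3, so changes up to this size in such genes are not excluded. RNA was measured per tube of eggs, so fewer eggs with a transcript and less of it per egg cannot be told apart.

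**Figure D1:**
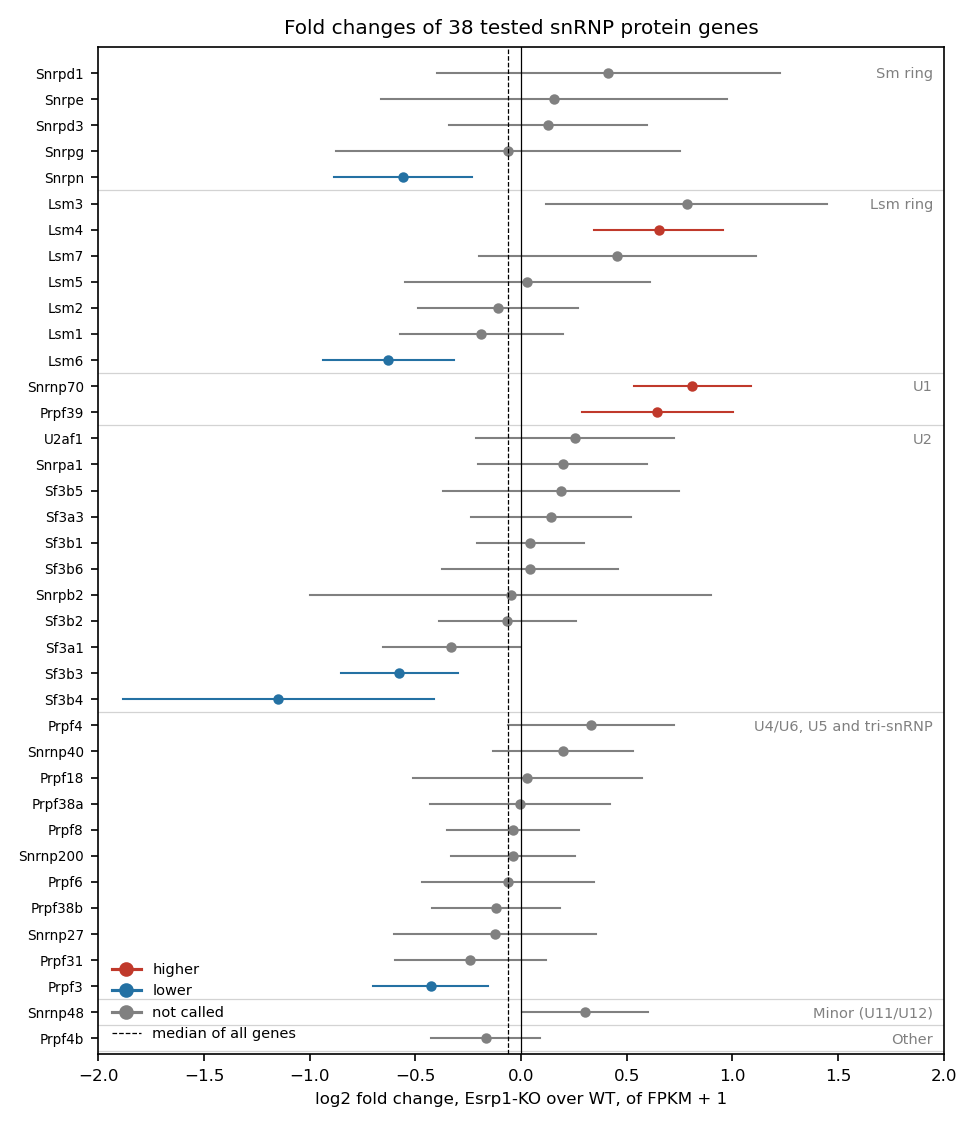
Fold changes of 38 tested snRNP protein genes, grouped by snRNP class. Points are log2 fold changes of FPKM + 1, Esrp1-KO over WT, bars are 95% confidence intervals from limma, red and blue mark the 3 genes called higher and the 5 called lower, and the dashed line is the median of all genes tested (-0.06). The called genes are spread over 5 of the classes, and most intervals cross 0.

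In FPKM the snRNP genes were far from equal, although many of their proteins sit in the same particle at 1 copy each. FPKM divides by an exon length per gene, and whether it tracks the stored amount between genes was not tested. Summed over the members, the level was 757 ± 168 FPKM in Esrp1-KO and 734 ± 114 FPKM in WT (SD, n = 4 each). This was 0.231 ± 0.044% of all FPKM in Esrp1-KO and 0.226 ± 0.030% in WT, and the ranges overlapped (0.184% to 0.291% in Esrp1-KO, 0.202% to 0.264% in WT). The 5 highest members held 52.5% of the members' summed level. Sf3b1, the scaffold of the SF3b complex that contacts the branch site, was the highest, with 120, 134, 146 and 139 FPKM in Esrp1-KO and 126, 138, 140 and 118 FPKM in WT. Its groups overlapped (log2 fold change 0.04, SE 0.11, 95% interval -0.21 to 0.30), with a sign that turned under some alternatives. The next were Snrnp27 (81.6 FPKM over all libraries), Snrpg (62.1), Snrpb2 (58.2) and Snrpd1 (56.8), none of them called. At the low end, 12 members fell below the filter: Snrpa, Sf3a2, U2af2, Snrpc, Snrpb, Lsm8, Snrnp25, Snrpd2, Prpf40b, Prpf19, Snrnp35 and Snrpf. They ran from 0.962 FPKM (Snrpa) to 0.0051 FPKM (Snrpf, with 89.5% of its 50-base stretches in other genes).

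**Figure D2:**
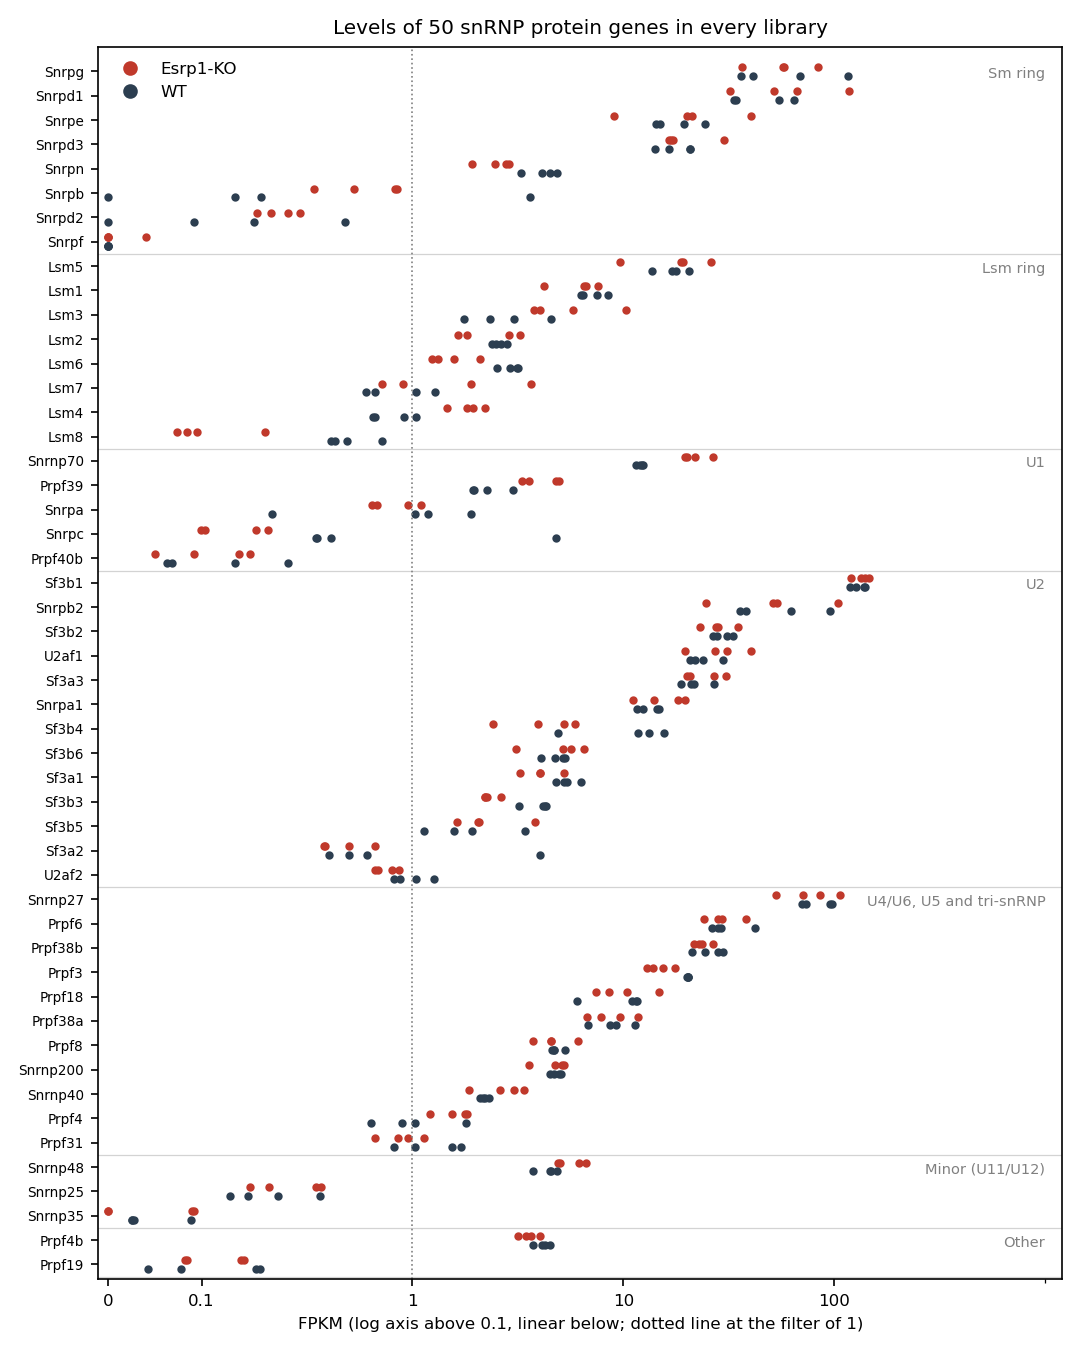
Level of 50 snRNP protein genes in each library, in FPKM on an axis that is logarithmic above 0.1 and linear below. Each point is 1 library (red Esrp1-KO above, dark WT below), genes are grouped by snRNP class and ordered by mean, and the dotted line marks the filter of 1 FPKM. Within a class the levels differ far more between genes than between genotypes: in the Sm ring they run from 62.1 FPKM (Snrpg) to 0.212 FPKM (Snrpd2). This leaves out Snrpf (0.0051 FPKM), for which 89.5% of 50-base stretches occur in other genes.

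Of the 6 members of the U1 snRNP, which recognises the 5' splice site, or associated with it, 3 were tested and 2 were higher. Over all genes tested 13.9% were called higher, and a class of 3 is too small to set against that share. Snrnp70 (U1-70K, ENSMUSG00000063511, GRCm38 chromosome 7, 45376453 to 45395742, minus strand) binds the first stem loop of U1 RNA and is contacted by SR proteins. It had 19.6, 26.5, 21.9 and 19.97 FPKM in Esrp1-KO and 12.3, 11.5, 12.01 and 12.4 FPKM in WT. Every Esrp1-KO library lay above every WT library. The reads behind these values numbered 4301 to 5027 in Esrp1-KO and 2186 to 2723 in WT. The ratio of means was 1.83 (log2 fold change 0.81, SE 0.12, limma adjusted p = 0.0009), and the call held in all 22 alternatives, at 0.64 to 0.98. Prpf39 (ENSMUSG00000035597, chromosome 12, 65036333 to 65063386, plus strand), a U1-associated protein, had 3.31, 3.56, 4.96 and 4.78 FPKM in Esrp1-KO and 2.25, 2.99, 1.94 and 1.96 FPKM in WT. Its groups did not overlap either, with the lowest Esrp1-KO library close to WT replicate 2 (log2 fold change 0.65, SE 0.16, limma adjusted p = 0.0107). The call was lost with replicates 1 and 4 alone (adjusted p = 0.0626), with replicates 2 and 3 alone (0.135) and with neither Esrp1-KO replicate 3 nor WT replicate 1 (0.0719).

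Further U1 genes were too low to be tested. Snrpa (the U1 A protein, which binds the second stem loop of U1) had 0.644 to 1.10 FPKM in Esrp1-KO and 0.216 to 1.89 FPKM in WT, and 20.2% of its 50-base stretches occur in other genes. Snrpc (the U1 C protein, which contacts the 5' splice site duplex) had 0.0995, 0.103, 0.208 and 0.182 FPKM in Esrp1-KO and 4.79, 0.354, 0.411 and 0.350 FPKM in WT. The Esrp1-KO libraries held 16 to 37 reads and the WT libraries 55 to 786, with WT replicate 1 far above the other 3. Fitted with no filter on level, Snrpc was not called (log2 fold change -0.78, limma adjusted p = 0.364). Prpf40b stood at 0.115 FPKM in Esrp1-KO and 0.133 FPKM in WT.

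**Figure D3:**
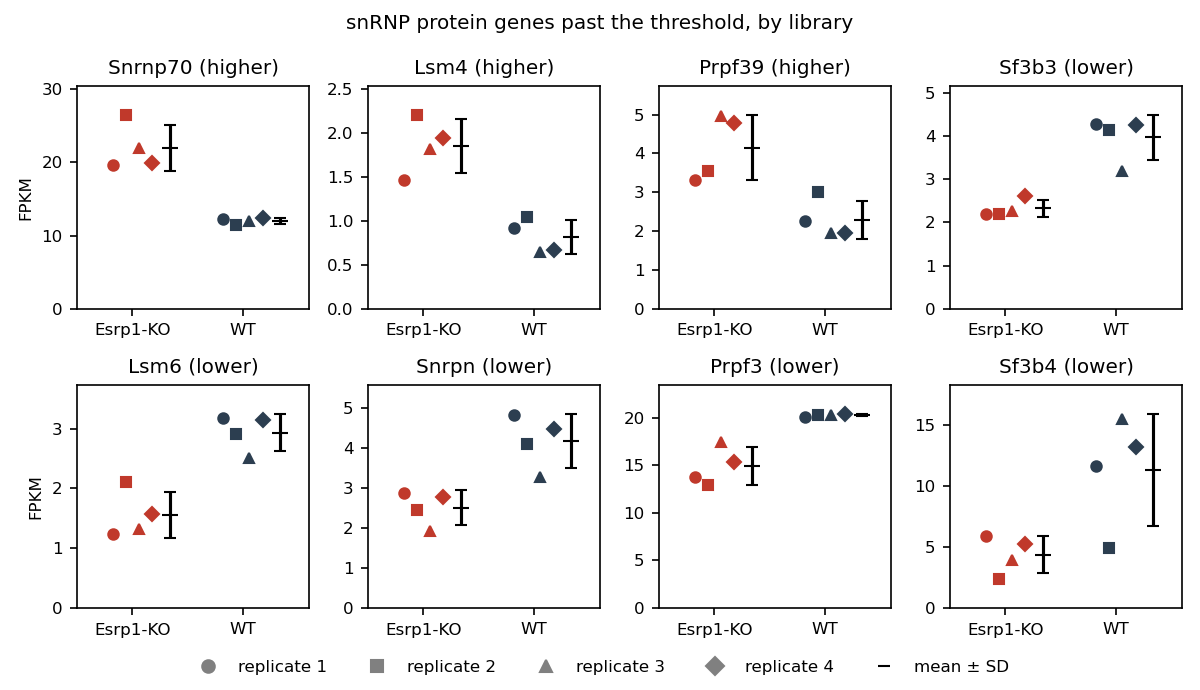
FPKM by library for the 8 snRNP protein genes past the threshold, Esrp1-KO left and WT right in each panel. Each symbol is 1 library, its shape gives the replicate number, and the bar shows mean ± SD (n = 4). For 7 genes the groups do not overlap; for Sf3b4, WT replicate 2 (4.90 FPKM) lies among the Esrp1-KO libraries.

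The promoters of these U1 genes are shown because they are the U1 members that rose; binding of factors was not measured. RefSeq windows (GRCm38.p6, 250 bases before to 50 after the start, read on the gene's strand) were at hand for 41 members, 52 windows in all. Capitals mark matches on either strand to GCATGCGC (core of the NRF1 motif), to the ETS motif CCGGAAG, to the Sp1-type box GGGCGG, to the start-site element TATAAA, to the E box CACGTG and to the pentamer CCAAT. Snrnp70 lies at chr7:45395693-45395992, minus strand, and Prpf39 at chr12:65036084-65036383, plus strand.
Snrnp70: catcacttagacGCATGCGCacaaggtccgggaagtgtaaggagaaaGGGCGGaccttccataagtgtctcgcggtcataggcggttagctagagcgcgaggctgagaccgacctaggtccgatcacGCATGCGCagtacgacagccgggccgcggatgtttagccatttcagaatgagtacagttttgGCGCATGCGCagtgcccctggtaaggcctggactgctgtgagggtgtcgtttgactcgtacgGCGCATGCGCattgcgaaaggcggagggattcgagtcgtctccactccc
Prpf39: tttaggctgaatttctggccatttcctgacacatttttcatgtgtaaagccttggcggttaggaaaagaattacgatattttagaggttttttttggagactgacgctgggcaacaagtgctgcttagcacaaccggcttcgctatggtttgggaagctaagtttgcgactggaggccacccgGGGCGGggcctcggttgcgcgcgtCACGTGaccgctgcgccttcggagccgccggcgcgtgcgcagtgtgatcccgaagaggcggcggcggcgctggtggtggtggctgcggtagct
The Snrnp70 window holds 4 separate matches to GCATGCGC, counting overlapping matches on both strands once. It is the only 1 of 32851 windows with 4 or more. The motif was found in 3 of 52 member windows (5.77%, Snrnp70, Lsm2 and Lsm8), in 2.71% of all windows and in 6.26% of the windows of tested genes. Lsm2 was not called and Lsm8 lay below the filter. Prpf39 holds an E box and a GGGCGG box and no match to the NRF1 core. CCGGAAG was found in 18 of 52 member windows (34.6%), in 8.86% of all windows and in 18.9% of the windows of tested genes, and 2 of the 10 windows of called members hold it. These matches are descriptions of sequence, and the motif set was chosen with the results known.

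Among the U2 proteins, 11 of 13 were tested, 2 were lower and none was higher. Both are subunits of SF3b, the complex that clamps the branch point. Sf3b3 (SF3b130, a propeller-shaped subunit; ENSMUSG00000033732, chromosome 8, 110810239 to 110846787, minus strand) had 2.20, 2.21, 2.27 and 2.62 FPKM in Esrp1-KO and 4.29, 4.15, 3.20 and 4.26 FPKM in WT. Every Esrp1-KO library lay below every WT library (log2 fold change -0.58, SE 0.12, limma adjusted p = 0.0053). With neither Esrp1-KO replicate 3 nor WT replicate 1 the adjusted p was 0.0502, and with replicates 2 and 3 alone 0.117. Sf3b4 (SF3b49, which binds the intron near the branch point; ENSMUSG00000068856, chromosome 3, 96172332 to 96177564, plus strand) had 5.91, 2.41, 3.95 and 5.22 FPKM in Esrp1-KO and 11.7, 4.90, 15.6 and 13.2 FPKM in WT. Its groups overlapped through WT replicate 2, and replicate 2 was the lowest library of both groups. The log2 fold change was -1.15 (SE 0.33, limma adjusted p = 0.0214). The adjusted p was 0.0532 without Esrp1-KO replicate 2 and 0.0509, 0.0607 and 0.0578 without WT replicates 1, 3 and 4. It was 0.0978 with neither Esrp1-KO replicate 3 nor WT replicate 1 and 0.116 with replicates 2 and 3 alone. Of its 50-base stretches, 45.3% occur in other genes, chiefly the processed pseudogene Gm7935, which was listed at 0.063 to 0.218 FPKM in Esrp1-KO and 0.344 to 0.917 FPKM in WT. How the authors shared reads between such pairs is not stated in the labels.

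The Sf3b3 window at chr8:110846754-110847053 (minus strand) is printed as that of the SF3b member called lower with groups apart, with the same motifs in capitals; Sf3b4 has no RefSeq window here.
Sf3b3: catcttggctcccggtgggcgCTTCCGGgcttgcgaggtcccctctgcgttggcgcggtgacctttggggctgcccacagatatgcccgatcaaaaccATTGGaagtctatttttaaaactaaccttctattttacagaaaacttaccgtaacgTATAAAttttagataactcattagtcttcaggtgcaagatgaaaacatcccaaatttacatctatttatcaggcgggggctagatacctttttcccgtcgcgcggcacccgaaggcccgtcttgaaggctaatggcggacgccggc
It holds 1 ETS match on the opposite strand, a CCAAT match, also on the opposite strand, and a TATAAA match, and no match to the NRF1 core.

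The remaining SF3 and U2 genes did not pass the test. Sf3a1, a subunit of SF3a, had 3.24, 5.25, 4.04 and 4.04 FPKM in Esrp1-KO and 5.22, 4.78, 6.28 and 5.42 FPKM in WT. Esrp1-KO replicate 2 alone reached into the WT range (log2 fold change -0.33, SE 0.15, limma adjusted p = 0.103), and without it the adjusted p was 0.0367. Sf3b2, Sf3b5, Sf3b6 and Sf3a3, further subunits of the SF3 complexes, had log2 fold changes between -0.06 and 0.19. Levels within SF3b ranged widely, with a mean of 132.8 FPKM for Sf3b1 and 2.20 FPKM for Sf3b5, a ratio of 60.3 per length. Snrpb2 and Snrpa1, the pair of U2 proteins bound to a stem loop of U2 RNA, were not called. Snrpb2 had 24.6, 104, 53.7 and 51.3 FPKM in Esrp1-KO and 35.9, 95.5, 62.4 and 38.2 FPKM in WT. Replicate 2 was its highest library in both groups, and the 95% interval of the log2 fold change ran from -0.9997 to 0.90, with a sign that turned under some scalings. U2af1, which recognises the AG at the 3' splice site, had 29.6 ± 8.6 FPKM in Esrp1-KO and 24.0 ± 4.0 FPKM in WT and was not called (log2 fold change 0.26, limma adjusted p = 0.368); 21.7% of its stretches are shared with other genes. Its partner U2af2, which binds the polypyrimidine tract, lay below the filter at 0.752 ± 0.093 FPKM in Esrp1-KO and 0.999 ± 0.198 FPKM in WT. Sf3a2 was below it too, at 0.381 to 0.665 FPKM in Esrp1-KO and, in WT, 0.499, 4.03, 0.401 and 0.611 FPKM, where replicate 2 stood alone.

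Of the 8 genes for Sm proteins, which form a ring of 7 around the snRNA, 5 were tested, 1 was lower and none was higher. Snrpn (SmN, a relative of SmB from an imprinted locus; ENSMUSG00000102252, chromosome 7, 59982495 to 60140219, minus strand) had 2.88, 2.45, 1.92 and 2.77 FPKM in Esrp1-KO and 4.83, 4.09, 3.26 and 4.47 FPKM in WT. Its groups did not overlap (log2 fold change -0.56, SE 0.15, limma adjusted p = 0.0143). The adjusted p was 0.112 with neither Esrp1-KO replicate 3 nor WT replicate 1 and 0.114 with replicates 2 and 3 alone. Snrpn shares 27.3% of its exon bases with other genes on the same strand. The genes overlapping it on either strand are Gm18908, Gm38393 and Snurf. Of its stretches, 26.5% occur in other genes, and how reads in the overlap were assigned is not stated. Snrpb, which encodes SmB, had 0.8294, 0.528, 0.848 and 0.340 FPKM in Esrp1-KO and 3.59, 0, 0.144 and 0.192 FPKM in WT, with WT replicate 1 above all other libraries. Per length, Snrpn was therefore the higher of these alternative ring members, at 3.33 FPKM over all libraries against 0.809 FPKM for Snrpb.

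The other ring members were high and varied between tubes. Snrpg (SmG) had 36.4, 83.3, 57.5 and 57.2 FPKM in Esrp1-KO and 36.0, 116, 69.1 and 41.1 FPKM in WT. Snrpd1 (SmD1) had 32.1, 117, 66.3 and 51.8 FPKM in Esrp1-KO and 33.5, 64.2, 54.8 and 34.4 FPKM in WT. Snrpe (SmE) had 9.06, 40.1, 21.2 and 20.03 FPKM in Esrp1-KO and 14.2, 24.4, 19.3 and 14.8 FPKM in WT. In each of these genes replicate 2 was the highest library of both groups and the groups overlapped. Their 95% intervals ran from -0.88 to 0.75 for Snrpg, whose sign turned under some scalings, from -0.40 to 1.22 for Snrpd1 and from -0.66 to 0.98 for Snrpe. Snrpd3 (SmD3) was not called either (log2 fold change 0.13, SE 0.21). Snrpd2 (SmD2) was low, at 0.184 to 0.293 FPKM in Esrp1-KO and 0 to 0.478 FPKM in WT. Snrpf (SmF) was listed at 0 in every library except Esrp1-KO replicate 4 (0.041 FPKM, 1 read). For Snrpf, 89.5% of stretches occur in other genes and 85.4% of exon bases are overlapped by genes on the opposite strand, so a value near 0 does not show that its RNA is missing.

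The Lsm rings share Lsm2 to Lsm7, and Lsm1 or Lsm8 completes them. With Lsm8 the ring is nuclear and holds U6, and with Lsm1 it is cytoplasmic and acts in decay of deadenylated mRNA. Of these 8 genes 7 were tested, with 1 higher and 1 lower. Lsm4 (ENSMUSG00000031848, chromosome 8, 70673248 to 70678752, plus strand) had 1.46, 2.20, 1.82 and 1.94 FPKM in Esrp1-KO and 0.913, 1.04, 0.650 and 0.666 FPKM in WT. The groups did not overlap, at a low depth of 49 to 57 reads in Esrp1-KO and 19 to 27 reads in WT (log2 fold change 0.65, SE 0.14, limma adjusted p = 0.0047). The ratio of means was 2.27, and the pseudocount holds the log2 value down at this level. The call was lost with replicates 1 and 4 alone (adjusted p = 0.0702) and with replicates 2 and 3 alone (0.0591). Lsm6 (ENSMUSG00000031683, chromosome 8, 78804865 to 78821140, minus strand) went the other way, with 1.24, 2.10, 1.33 and 1.57 FPKM in Esrp1-KO and 3.17, 2.91, 2.51 and 3.14 FPKM in WT. These groups did not overlap either (log2 fold change -0.63, SE 0.14, limma adjusted p = 0.0063). Its adjusted p was 0.0541 with neither Esrp1-KO replicate 3 nor WT replicate 1 and 0.187 with replicates 2 and 3 alone.

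The Lsm6 window at chr8:78821103-78821402 (minus strand) is printed as that of the Lsm gene called lower, with the same motifs in capitals; Lsm4 has no RefSeq window here.
Lsm6: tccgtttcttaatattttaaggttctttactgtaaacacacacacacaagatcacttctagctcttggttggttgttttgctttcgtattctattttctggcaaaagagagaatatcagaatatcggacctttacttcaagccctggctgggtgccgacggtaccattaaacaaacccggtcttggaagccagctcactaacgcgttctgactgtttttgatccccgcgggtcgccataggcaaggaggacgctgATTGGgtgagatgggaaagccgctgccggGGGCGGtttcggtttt
It holds a CCAAT match on the opposite strand and a GGGCGG box, and none of the other motifs.

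Between the subunits that tell the rings apart, the cytoplasmic one was the higher in FPKM. Lsm1 had 4.20, 6.52, 7.61 and 6.63 FPKM in Esrp1-KO and 6.26, 7.495, 8.41 and 6.44 FPKM in WT, with overlapping groups (log2 fold change -0.19, SE 0.17, limma adjusted p = 0.427). Lsm8 had 0.0736, 0.0956, 0.199 and 0.0842 FPKM in Esrp1-KO and 0.488, 0.409, 0.719 and 0.428 FPKM in WT. Every Esrp1-KO library lay below every WT library, on 10 to 24 reads in Esrp1-KO and 43 to 85 in WT. Lsm8 lay below the filter of 1 FPKM, and was called lower in a fit with no filter on level (log2 fold change -0.44, limma adjusted p = 0.0148), where 12.2% of 24860 genes were called (4.12% higher, 8.07% lower). Since Lsm8 was below the filter, the planned ratio of Lsm8 to Lsm1 was not tested. Lsm3 had 3.76, 10.2, 5.75 and 4.02 FPKM in Esrp1-KO and 2.33, 4.56, 3.05 and 1.76 FPKM in WT. Each Esrp1-KO library was above the WT library of the same number, while the groups overlapped through WT replicate 2. Its log2 fold change of 0.78 (SE 0.30) missed the threshold (limma adjusted p = 0.0636) and passed it with the replicate number as a block (0.00295). Lsm2, Lsm5 and Lsm7 were not called, with log2 fold changes of -0.11, 0.03 and 0.46, and 20.99% of the stretches of Lsm5 occur in other genes.

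All 11 genes of the U4/U6 snRNP, the U5 snRNP and the tri-snRNP were tested, and Prpf3 was the only one called. Prpf3, a U4/U6 protein mutated in a form of retinitis pigmentosa (ENSMUSG00000015748, chromosome 3, 95830124 to 95855885, minus strand), had 13.7, 12.9, 17.5 and 15.4 FPKM in Esrp1-KO and 20.1, 20.3, 20.2 and 20.3 FPKM in WT. Every Esrp1-KO library lay below the WT libraries, which were nearly equal (20.2 ± 0.1 FPKM, SD, n = 4). The log2 fold change was -0.43 (SE 0.12, limma adjusted p = 0.0200). This call was lost with TMM, median-ratio and quantile scaling (adjusted p = 0.0624, 0.0688 and 0.0583), without WT replicate 4 (0.0517), and with replicates 1 and 4 or 2 and 3 alone (0.0723 and 0.200). Its U4/U6 partners among the members, Prpf4 and Prpf31, were not called. Ppih, a U4/U6 protein outside the members, was called lower (log2 fold change -1.07, limma adjusted p = 0.0065). Prpf4 had 1.58 ± 0.27 FPKM in Esrp1-KO and 1.09 ± 0.49 FPKM in WT (log2 fold change 0.33, limma adjusted p = 0.170). Without WT replicate 1 it was called higher (0.48, limma adjusted p = 0.0354), as with neither that library nor Esrp1-KO replicate 3 (0.55, 0.0332). Prpf31, another retinitis pigmentosa gene, had 0.902 ± 0.195 FPKM in Esrp1-KO and 1.27 ± 0.41 FPKM in WT (log2 fold change -0.24, limma adjusted p = 0.270).

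The large U5 proteins showed no call and narrow intervals. Prpf8, the scaffold of the catalytic centre, had 4.73 ± 0.97 FPKM in Esrp1-KO and 4.83 ± 0.32 FPKM in WT, with a 95% interval of -0.35 to 0.28 on the log2 scale. Snrnp200, the helicase that unwinds U4 from U6, had 4.68 ± 0.76 FPKM in Esrp1-KO and 4.79 ± 0.26 FPKM in WT, with an interval of -0.33 to 0.26. Both intervals lie within 1.5-fold of FPKM + 1. Snrnp27, a tri-snRNP protein, was the second highest member, with 52.9, 106, 85.7 and 70.7 FPKM in Esrp1-KO and 73.0, 97.9, 95.8 and 70.3 FPKM in WT, and overlapping groups. The remaining genes, Prpf6 (which bridges U5 to U4/U6), Snrnp40, Prpf18, Prpf38a and Prpf38b, had log2 fold changes between -0.12 and 0.20 and none was called. Of the U11/U12 proteins of the minor spliceosome, Snrnp48 was tested, with 4.90, 6.65, 6.13 and 5.003 FPKM in Esrp1-KO and 4.82, 3.72, 4.51 and 4.52 FPKM in WT. Its groups were just apart, and the gene was not called (log2 fold change 0.30, SE 0.13, limma adjusted p = 0.105) except with TMM, median-ratio and quantile scaling. Snrnp25 and Snrnp35 had means of 0.273 and 0.0453 FPKM in Esrp1-KO and 0.224 and 0.0423 FPKM in WT. The kinase Prpf4b, which acts on the tri-snRNP, was not called (log2 fold change -0.17, SE 0.12). Prpf19, the ubiquitin ligase that names a core complex of the active spliceosome, stood at 0.120 ± 0.042 FPKM in Esrp1-KO and 0.123 ± 0.074 FPKM in WT.

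Much of the spread of the members was between tubes, and replicates 2 and 3 led in both genotypes. The lowest library by the members' median deviation was replicate 1 in Esrp1-KO (-0.24) and replicate 4 in WT (-0.08). Esrp1-KO replicate 2 was the highest Esrp1-KO library for 26 of the 39 tested members (66.7%; 36.2% of all genes tested), and WT replicate 2 the highest WT library for 16 (41.0%; 26.2% of all). In 14 members (35.9%; 14.1% of all) replicate 2 led in both groups. The pattern lay mostly in short transcripts. In the 13 shortest members (792 to 2854 bases of exon), the median deviation from the group mean, on the log2 scale, was -0.53, 0.48, 0.12 and 0.00 in Esrp1-KO replicates 1 to 4 and -0.19, 0.25, 0.11 and -0.20 in WT replicates 1 to 4. All genes tested in the same length range had medians of -0.05 and 0.07 in Esrp1-KO replicates 1 and 2. The 13 longest members (5661 to 11967 bases) had -0.15 and 0.15 there. Over the 39 members the deviation of replicate 2, averaged over both groups, fell with length (Spearman rho -0.59, Pearson r with log2 length -0.45), and over all 8021 genes rho was -0.12. These points share 2 libraries, so the values are a description. The split by length was chosen after the values were seen, and the part of this pattern in the calls was not tested. Sf3b4 went against it, with replicate 2 lowest in both groups.

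**Figure D4:**
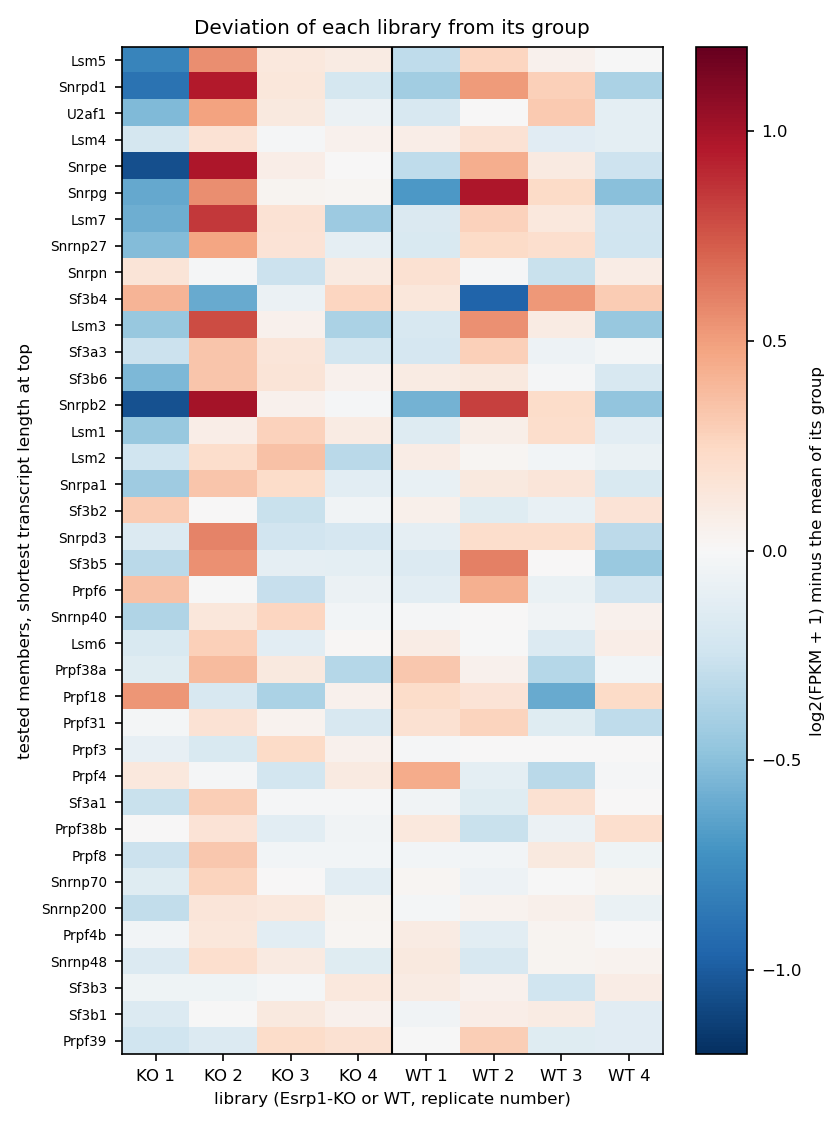
Deviation of each library from the mean of its group, log2(FPKM + 1), for 38 tested members ordered by exon length with the shortest at the top. Red is above and blue below the group mean, with Esrp1-KO libraries (KO) left and WT libraries right of the black line. Among short genes replicate 2 is mostly red and replicate 1 mostly blue in both groups, with median deviations of 0.48 and -0.53 in Esrp1-KO for the 13 shortest.

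Among genes for proteins that assemble, remodel or work beside the snRNPs, 37.5% of 64 tested genes in 6 lists were called (9 higher, 15 lower), beside 20.5% of the members and 36.9% of all genes; the difference from the members was not tested. The higher count was 5 without WT replicate 3 and 5 without WT replicate 4. With neither Esrp1-KO replicate 3 nor WT replicate 1, the 6 lists together held 5 higher and 7 lower genes, not split by list here. The Prp19 complex and its partners, which join the spliceosome at activation, had 3 higher and 7 lower among 14. Bud13 (retention and splicing complex) had 2.82 to 3.84 FPKM in Esrp1-KO and 8.65 to 11.8 FPKM in WT (log2 fold change -1.25, SE 0.14, limma adjusted p = 0.0001). Rbm22, a zinc-finger protein at the catalytic centre, had 2.58 to 4.78 FPKM in Esrp1-KO and 8.22 to 11.4 FPKM in WT (log2 fold change -1.14, limma adjusted p = 0.0008). Cwc22, which brings in the exon junction complex, had 7.48 to 8.98 FPKM in Esrp1-KO and 12.9 to 15.03 FPKM in WT (log2 fold change -0.72, limma adjusted p = 0.0010). For each of these genes the groups did not overlap. Bud13 changed by more than any tested member, and Rbm22 by more than any except Sf3b4.

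Factors that build snRNPs had 4 higher and 2 lower among 15. Gemin5, which binds snRNA for the SMN complex, had 2.63 to 5.40 FPKM in Esrp1-KO and 0.231 to 2.34 FPKM in WT (log2 fold change 1.24, SE 0.31, limma adjusted p = 0.0111). Clns1a, a chaperone that holds Sm proteins before assembly, had 12.4 to 19.4 FPKM in Esrp1-KO and 6.85 to 13.4 FPKM in WT, where WT replicate 1 reached into the Esrp1-KO range (log2 fold change 0.78, limma adjusted p = 0.0150). Gemin8, another subunit of the SMN complex, had 1.48 to 2.39 FPKM in Esrp1-KO and 2.89 to 4.48 FPKM in WT (log2 fold change -0.65, limma adjusted p = 0.0104), and the adjusted p was 0.0652 with neither Esrp1-KO replicate 3 nor WT replicate 1. Members of the same SMN complex were thus called in opposite directions in the main fit. With replicates 1 and 4 alone the calls of Gemin5 (limma adjusted p = 0.136), Clns1a (0.326) and Gemin8 (0.0641) ended. Gemin8 was not called with replicates 2 and 3 alone either (limma adjusted p = 0.123).

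Among 14 other snRNP and tri-snRNP proteins, 1 was higher and 2 were lower. Ppih, the cyclophilin of the U4/U6 snRNP, had 3.10 to 8.22 FPKM in Esrp1-KO and 10.0005 to 15.5 FPKM in WT (log2 fold change -1.07, limma adjusted p = 0.0065), with 40.8% of its stretches shared with other genes. Smndc1 fell (log2 fold change -0.58, limma adjusted p = 0.0081) and the U2-associated Htatsf1 rose (0.49, 0.0141). The Smndc1 call ended with neither Esrp1-KO replicate 3 nor WT replicate 1 (limma adjusted p = 0.0618). Among 7 helicases and U5 GTPase genes, Dhx35 rose (0.60, 0.0130) and Ddx46, which remodels U2, fell (-0.46, 0.0132). The Ddx46 call ended with neither of the same 2 libraries (limma adjusted p = 0.0564). With replicates 2 and 3 alone, Smndc1, Htatsf1, Dhx35 and Ddx46 were not called (limma adjusted p = 0.127 to 0.213). The 5 further minor-spliceosome genes did not pass (limma adjusted p = 0.0723 to 0.432), with Rnpc3 alone at an unadjusted p below 0.05. Rnpc3 (U11/U12-65K) had 3.504, 6.10, 5.05 and 4.48 FPKM in Esrp1-KO and 3.32, 4.20, 2.94 and 2.44 FPKM in WT, each Esrp1-KO library above the WT library of the same number (log2 fold change 0.45, limma adjusted p = 0.0723). It was called higher with the replicate number as a block (0.0378), with TMM, median-ratio and quantile scaling (0.0301 to 0.0441), without Esrp1-KO replicate 1 (0.0299) and without WT replicate 2 (0.0401). Of the 9 decay partners of the cytoplasmic Lsm ring, none was called higher, and the decapping enzyme Dcp2, the exonuclease Xrn1 and the helicase Ddx6 fell (log2 fold changes -0.64, -0.51 and -0.52, limma adjusted p = 0.0165, 0.0225 and 0.0275). Patl2, a PAT1 relative of the oocyte, had 3.97 to 8.96 FPKM in Esrp1-KO and 2.83 to 3.79 FPKM in WT, with groups apart. It just missed the threshold (log2 fold change 0.58, limma adjusted p = 0.0512) and passed it in 8 of the 21 alternatives that tested it, the replicate block (0.0192) among them. The Dcp2 call was lost with neither Esrp1-KO replicate 3 nor WT replicate 1 (limma adjusted p = 0.0502). It also missed the threshold in fits of only replicates 1 and 4 (0.0988) or only replicates 2 and 3 (0.0754). The Xrn1 call was lost without Esrp1-KO replicate 2 (limma adjusted p = 0.0512), WT replicate 1 (0.0677) or WT replicate 4 (0.0687), and with neither Esrp1-KO replicate 3 nor WT replicate 1 (0.123). That of Ddx6 was lost under 12 of the 21 alternatives that tested it, among them TMM scaling (0.0546) and the omission of Esrp1-KO replicate 1 or 2 or of WT replicate 1, 3 or 4 (0.0540 to 0.0767). With neither Esrp1-KO replicate 3 nor WT replicate 1, Ddx6 was not called either (limma adjusted p = 0.0798).

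**Figure D5:**
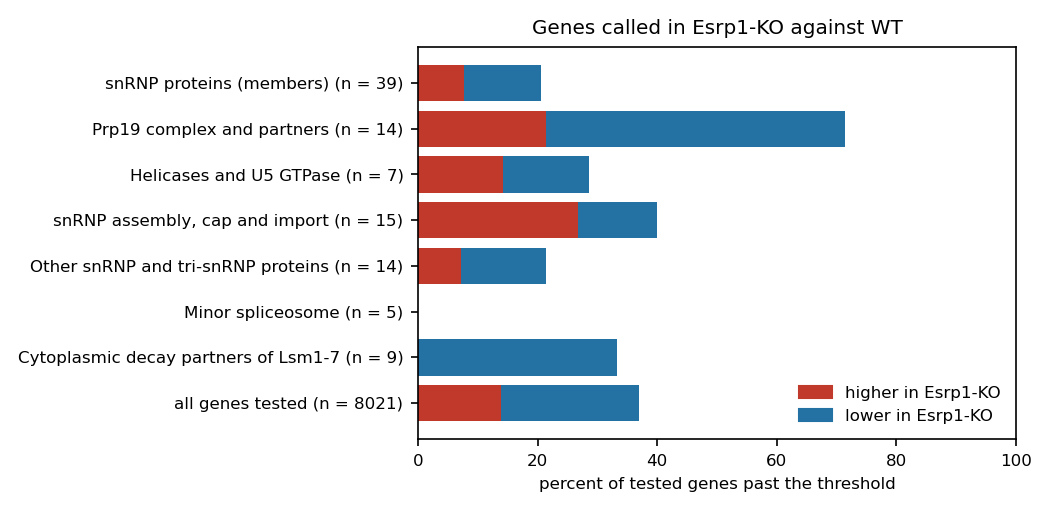
Percent of tested genes called higher (red) and lower (blue) in Esrp1-KO against WT by limma, for the snRNP protein genes, 6 lists of other spliceosome and decay genes, and all genes tested, with the number tested in brackets. The members (20.5%) lie below all genes (36.9%), and the Prp19 list, with 10 of 14 called, lies above. With neither Esrp1-KO replicate 3 nor WT replicate 1, the 6 lists together held 5 higher and 7 lower genes. In that fit 10.3% of members and 25.4% of all genes were called.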

How the data were processed

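RNA was measured in 4 Esrp1-KO and 4 WT libraries of pooled MII oocytes; cDNA was made with Smart-seq2 from lysed oocytes, per the labels' protocols. FPKM is the unit of the deposited files, per the file headers; the build was GRCm38, per the submitters' processing notes. No aligner, counter or strand setting is stated in the labels.

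FPKM times exon length fell on whole reads, with a tolerance of 0.02 read, for 90.0% to 90.6% of values at M21 lengths. A search over lengths gave reads for 24450 genes, 99.99% to 100.0% of the implied totals; 47 members were whole at their M21 length and 4 at another. Reads without molecular identifiers are not independent molecules. FPKM are relative levels, so a change in a few abundant genes shifts all others.

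The 8021 genes whose mean reached 1 FPKM entered a limma-trend fit (limma 3.58.1, R 4.3.3) of log2(FPKM + 1) on genotype, tested on both sides, with p-values adjusted by Benjamini-Hochberg over them all. Fold changes on this scale understate changes of low genes. The steps were tested on simulated data with spread drawn separately for each gene and library. Deviations shared by many genes of a library were therefore not covered. Shared sequence is the percent of 50-base stretches of a gene found in transcripts of other M21 genes, given where it is above 20%.

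Values are given per library for members past the threshold whose groups do not overlap and the 5 highest, and up to 3 called genes with the smallest p per further list; Sf3b4, Snrpc, Lsm8, Lsm3, Sf3a1, Snrpb, Snrpe, Snrnp48 and others given by library were chosen after their values were seen. A further gene is not reported here. Members and lists were chosen with earlier results of these data known. Same-numbered libraries deviated together over genes (correlations 0.262, 0.317, 0.226 and 0.261 for numbers 1 to 4), so the numbers, taken from the sample titles, were treated as pairs in an alternative; the labels name no shared litter or date, and Esrp1-KO replicate 1 correlated more with WT replicate 4 (0.402). Alternatives changed the pseudocount, the filter, the scaling, the model (voom on recovered reads among them) and the libraries used.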

Additional observations from a re-analysis of the deposited data

Results flagged for a closer look

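Groups of 4 libraries were examined for 50 genes in each genotype, without Snrpf in WT, which was 0 throughout. Of these 99 groups, 10 had a library far from the other 3 by Dixon's gap test at the 95% level. Chance gives about 1 in 20 groups, a rate that need not hold for groups of a few reads. Among the tested members, Snrpd3 stood at 29.9 FPKM in Esrp1-KO replicate 2 (others 16.5 to 17.2). Sf3b3 stood at 2.62 FPKM in Esrp1-KO replicate 4 (others 2.20 to 2.27) and at 3.20 FPKM in WT replicate 3 (others 4.15 to 4.29), each on the side of the other genotype. Prpf18 was low at 6.05 FPKM in WT replicate 3 (others 11.01 to 11.6), where Prpf8 was high at 5.30 FPKM (others 4.61 to 4.70).

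Among genes below 1 FPKM on average, the far library was a WT one in most cases. WT replicate 1 held Snrpc at 4.79 FPKM (others 0.350 to 0.411) and Snrpb at 3.59 FPKM (others 0 to 0.192). WT replicate 2 held Sf3a2 at 4.03 FPKM (others 0.401 to 0.611) and Snrnp35 at 0.0890 FPKM (others 0.0257 to 0.0281). For Snrnp35 this was 3 reads against 1 read in each other WT library. Snrpf was at 0.0411 FPKM in Esrp1-KO replicate 4, from 1 read, and at 0 in the others.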

How the results depend on the processing

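Over 22 alternatives, 35 single genes gave 755 values, of which 655 kept direction and side of the threshold, 57 lost a call, 27 gained one and 16 changed sign, all 16 in genes not called. With a mean of at least 5 FPKM (22 members tested), 1 member was higher and 2 lower, with 668 and 996 of all genes and 9 lower genes of the other lists. With no filter, 15.7% of members and 12.2% of all genes were called, and 5 list genes were higher. TMM, median-ratio and quantile scaling each gave 5 higher members. Replicates 1 and 4 alone gave 676 higher genes and 1 higher list gene. Replicates 2 and 3 alone gave 1 higher and 0 lower members (limma; 3 lower at an unadjusted p below 0.05), 584 higher and 905 lower genes, and 3 higher and 5 lower list genes. With neither Esrp1-KO replicate 3 nor WT replicate 1, an alternative added after the data were seen, 1 member was lower, and 5 list genes were higher and 7 lower. Leaving out 1 library at a time gave 3 to 4 higher and 3 to 5 lower members (3 lower without WT replicate 4), and 5 to 9 higher list genes (5 without WT replicate 3 or 4). With the replicate block, pairing same-numbered libraries, 4 members were higher and 5 lower among 3406 genes called; it added Lsm3 and ended no member's call. With voom on recovered reads, log2 fold changes moved by over 1.5 times for Gemin5 (2.31), Dhx35 (1.19), Lsm4 (1.18) and Lsm6 (-0.95), all still called.

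Signs turned for Snrpb2 (0.035 with TMM, 0.052 with median-ratio scaling, -0.38 to 0.30 without single libraries), Snrpg (0.022, 0.039, 0.24 with replicates 1 and 4 alone, -0.29 to 0.26 without single libraries), Sf3b1 (-0.076 with quantile normalization, -0.020 with a common nuclear total, -0.011 with neither of those 2 libraries, -0.0020 to 0.099 without single libraries) and Snrnp27 (-0.28 to 0.052 without single libraries), all log2 fold changes. The call of Sf3b4 also ended with no filter (limma adjusted p = 0.0761). The cause was not tested. Other scalings moved the median of all genes by at most 0.086. None of the 5 planned ratios between paralogous or alternative subunits had both genes at 1 FPKM or more, so neither they nor their alternatives were run; U2af1l4 was not analysed here. Depth limits the low members: Lsm4 and Lsm8 rested on under 100 reads per library.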
